A study of Mus musculus with 10 samples.

Results

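Proliferation was read from 39 genes, all of which are among the 32285 genes listed in each of the 5 gene matrices of a single-cell study of mouse lymph nodes. They are 24 mitotic genes, 13 genes of DNA replication and 2 genes, Stmn1 and Hmgb2, that are also found outside dividing cells. The rule names the genes and uses no measured value, though the list was drawn up with earlier results of these data known. The share of cycling cells and the level of each gene were taken in every cell class gated on marker genes, and compared between classes and between the conditions named by hashtags.

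The mice were wild-type (WT) female BALB/c animals aged 8 weeks, and none carried an engineered allele. The 4T1 and 67NR groups had 4T1 or 67NR cells, both mouse mammary tumour lines, placed orthotopically in the 4th mammary pad, and nodes were taken on day 18 at a tumour size of 500 mm3. LPS, a bacterial lipopolysaccharide, was given under the skin 72 hours before collection, and naive mice were untreated. A stromal library held axillary node cells of 4T1, 67NR, LPS and naive mice, while a myeloid and stromal library and a T cell library each held 4T1, 67NR and naive cells. An axillary atlas and a mediastinal atlas held naive cells stained with 24 antibodies. Cells of at least 3 mice were pooled per condition, and a hashtag names the condition and not the animal, so each condition is 1 sum of cells in a library and animals cannot be told apart.

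Dividing cells switch these genes on in waves. Replication genes such as Mcm2 to Mcm7, which unwind DNA, and Pcna, the clamp that holds the polymerase, rise as cells enter S phase under E2F factors. Mitotic genes such as Cdk1 and its cyclins, the kinases Plk1 and Aurkb, the spindle proteins Tpx2 and Nusap1 and the centromere proteins Cenpf and Cenpe rise later, and many carry CCAAT boxes and a cell cycle genes homology region (CHR) close to the start of transcription. In a lymph node, germinal-centre B cells and antigen-stimulated T cells are known to divide fast, whereas mature neutrophils are end cells that have left the cycle.

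The promoters were searched for these letters, and sequences are shown to let the mitotic and replication genes be compared. Promoter windows of 250 bases before to 50 bases after the start, from RefSeq (GRCm38.p6), matched 20 of the 24 mitotic, 11 of the 13 replication and 1 of the 2 other genes. The CHR letters TTTGAA or TTTAAA, on either strand, were in 18 of 20 mitotic promoters (90%) and 5 of 11 replication promoters (45.5%), against 30.6% of 27025 genes with a window. CCAAT was in 90% and 72.7%, against 41.1% of all. CHR letters together with CCAAT were in 17 of 20 mitotic promoters (85.0%), in 3 of 11 replication promoters (27.3%) and in 12.2% of all. The E2F letters TTTGGCGC, TTTCCCGC, TTTGCCGC or TTTCGCGC were in 1 of 20 mitotic promoters (5%, Cdk1), in 4 of 11 replication promoters (36.4%) and in 2.61% of all. A match describes letters and not a bound site. The 200 bases before the start follow for the 3 mitotic and 3 replication genes of highest mean level with a match, 5′ to 3′ on the gene's strand, with matches on either strand in capitals, overlapping E2F matches run together.
Top2a: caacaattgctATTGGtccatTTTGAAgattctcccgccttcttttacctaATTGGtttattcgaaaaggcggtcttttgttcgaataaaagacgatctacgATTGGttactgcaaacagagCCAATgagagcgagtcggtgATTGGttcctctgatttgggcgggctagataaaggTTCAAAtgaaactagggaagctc
Cenpa: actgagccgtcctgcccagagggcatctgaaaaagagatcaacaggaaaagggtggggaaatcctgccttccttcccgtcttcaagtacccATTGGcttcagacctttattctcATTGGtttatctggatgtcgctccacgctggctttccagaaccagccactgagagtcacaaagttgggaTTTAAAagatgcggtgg
Mki67: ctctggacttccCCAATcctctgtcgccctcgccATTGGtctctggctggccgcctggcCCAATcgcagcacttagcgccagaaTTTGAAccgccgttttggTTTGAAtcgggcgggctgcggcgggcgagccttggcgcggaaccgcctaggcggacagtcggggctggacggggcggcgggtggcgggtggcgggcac
Pcna: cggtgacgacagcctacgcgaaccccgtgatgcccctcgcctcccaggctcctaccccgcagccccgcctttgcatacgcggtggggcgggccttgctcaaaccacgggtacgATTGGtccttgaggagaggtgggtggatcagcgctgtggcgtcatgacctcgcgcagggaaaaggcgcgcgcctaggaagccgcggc
Mcm6: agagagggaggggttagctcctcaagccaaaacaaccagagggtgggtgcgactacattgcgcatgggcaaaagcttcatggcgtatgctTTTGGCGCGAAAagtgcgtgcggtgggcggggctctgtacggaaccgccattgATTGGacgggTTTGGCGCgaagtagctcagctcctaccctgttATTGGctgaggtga
Rrm2: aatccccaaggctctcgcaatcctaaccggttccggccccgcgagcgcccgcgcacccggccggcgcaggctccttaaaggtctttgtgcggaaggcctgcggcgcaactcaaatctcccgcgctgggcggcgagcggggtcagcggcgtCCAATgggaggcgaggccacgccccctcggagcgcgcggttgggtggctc
The windows are Top2a, chr11:99024190-99024389, minus strand; Cenpa, chr5:30666686-30666885, plus strand; Mki67, chr7:135716380-135716579, minus strand; Pcna, chr2:132253181-132253380, minus strand; Mcm6, chr1:128359706-128359905, minus strand; and Rrm2, chr12:24708054-24708253, plus strand. Within the printed bases Top2a holds 2 CHR matches and 5 CCAAT boxes, Mki67 holds 2 and 3, and Cenpa holds 1 and 2. Mcm6 holds 3 E2F matches and 2 CCAAT boxes, and Pcna and Rrm2 hold 1 CCAAT box each. The longer windows searched also hold TTTAAA at the start of Rrm2, TTTGAA after the start of Cenpa and a further CCAAT box of Top2a, which lie outside the printed bases.

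After filters, 2350 cells of the stromal library, 5412 of the myeloid and stromal library, 7210 of the T cell library, 10626 of the axillary atlas and 25148 of the mediastinal atlas were used. A UMI marks 1 captured molecule, and a 3′ UMI count does not grow with gene length. Levels are counts per 1000000 UMIs of a class (CPM). Capture may still differ between genes, so levels compare genes only roughly. The libraries held 36622159 to 121022621 UMIs in all, with a median of 10802.5 to 12899 UMIs per cell in the hashtagged libraries and 6433 and 2272 in the axillary and mediastinal atlases. Classes are marker-gated and are "like" their names only. The mediastinal atlas stood apart. In it 57.0% of cells met no gate and 14.6% met more than 1, and the summed level of 8 B cell markers was 1216 to 1467 CPM in its regulatory, conventional CD4 and both CD8 T classes, against 7.26 to 24.2 CPM in those classes of the T cell library. Counts of called genes of the list, their medians, the T cell share differences and some single genes are therefore also given without it. The germinal-centre share difference is given without it only within a range over samples left out. Counts of other pathway genes and of dissociation stress genes, and the remaining single genes, are given with it only. Pairs of libraries shared 6 to 82 cell barcodes, 0.171% to 0.801% of the smaller one.

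A cell was called cycling where, after thinning to 1000 UMIs, at least 2 of the 24 mitotic genes had a UMI. Shallower cells were left out, 30, 144, 14, 80 and 2191 in the 5 libraries in the order above. Intervals are exact 95% Clopper-Pearson intervals for shares, exact Poisson intervals for levels and exact conditional binomial intervals for ratios. They cover counting error only, since the cells of a condition are not replicates of it. Where no cell was cycling, "up to" gives 3 cells as a share of the cells counted. This limit lies below the exact upper bound.

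Cycling cells were frequent among germinal-centre B cells and, in the T cell library, among memory or effector CD8 T cells and regulatory T cells. Follicular helper T cells were at 14.7% in the 34 cells of naive mice, but at 5.80% and 5.17% in 4T1 and 67NR mice. Cycling cells were rare in fibroblasts and neutrophils. In the T cell library 267 of 2427 cells of 4T1 mice (11.0%), 239 of 2442 of 67NR mice (9.79%) and 167 of 2327 of naive mice (7.18%) were cycling. In the myeloid and stromal library the shares over all cells were 3.63%, 2.38% and 1.08% in the same order. The axillary atlas had 2.03%, and the mediastinal atlas 7.03%, of which 51.7% were cells with no gate. Of the 673 cycling cells of the T cell library, memory or effector CD8 T cells made up 33.9% and regulatory T cells 21.2%. T cells of no named subset made up 17.8%. Germinal-centre B cells were 33.2% of the 214 of the axillary atlas. In the myeloid and stromal library 26 of 116 cycling cells were germinal-centre B cells, 25 were monocytes and 10 were cDC2. Only 14 cells of the stromal library were cycling, of which 5 were fibroblasts, 4 blood endothelial cells and 2 lymphatic endothelial cells. Before thinning, cycling cells held a median of 31446 UMIs in the T cell library against 10418 in the others, and 11844 against 6416.5 in the axillary atlas. In the mediastinal atlas these medians were 2444 and 2406.

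**Figure D1:**
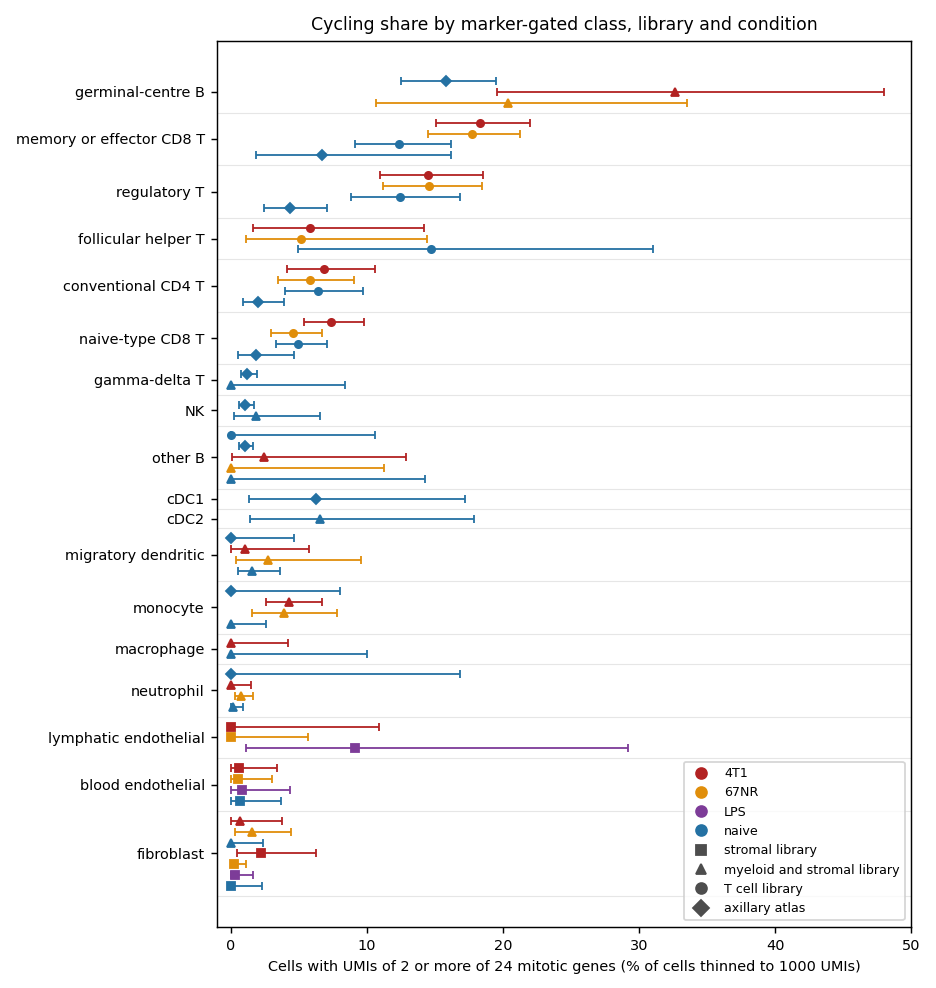
Share of cells with UMIs of at least 2 of 24 mitotic genes after thinning to 1000 UMIs (x axis, percent) by marker-gated class (y axis), with 1 point per library and condition, 95% Clopper-Pearson bars, colour for condition and shape for library. Germinal-centre B cells reach 32.6%, memory or effector CD8 T cells lie between 6.67% and 18.3%, and every fibroblast and neutrophil point is at 2.17% or lower. The mediastinal atlas is not drawn.

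Germinal-centre B cells held more of nearly every gene than other B cells: 38, 32, 39 and 39 of the 39 genes were higher in the axillary atlas, the mediastinal atlas, 4T1 and 67NR mice. The cycling share was 71 of 450 cells in the axillary atlas (15.8%, 12.5 to 19.5), 15 of 46 in the 4T1 sum (32.6%, 19.5 to 48.0) and 11 of 54 in the 67NR sum (20.4%, 10.6 to 33.5) of the myeloid and stromal library, and 11 of 80 in the mediastinal atlas (13.8%). Other B cells, a mostly resting class, were at 16 of 1567 (1.02%, 0.585 to 1.65) in the axillary atlas, while the mediastinal atlas had 3.97%. The small 4T1 and 67NR sums, of 42 and 31 other B cells, had 2.44% and 0%. Without thinning, where at least 3 mitotic genes were asked for, the axillary shares were 54.7% at a median of 11304 UMIs and 2.93% at a median of 5087.5 UMIs. The share was higher in the germinal-centre class in 4 of 4 sums, by 18.8 percentage points ± 8.75 (SD, n = 4). Summed over the 24 mitotic genes, the level was 1309, 1151, 2496 and 1979 CPM in germinal-centre B cells of the axillary atlas, the mediastinal atlas, 4T1 and 67NR mice, against 208, 331, 163 and 154 CPM in other B cells, with no overlap.

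The contrast between these classes was tested on 8043 genes with edgeR's quasi-likelihood test on summed counts (sample as a block, Benjamini-Hochberg adjusted). Of the 35 genes of the list that passed the filter on low counts, 34 rose and none fell. Of all genes tested, 14.6% rose and 15.1% fell. The median log2 difference was 2.87 over these genes and -0.02 over all genes. Without the mediastinal atlas 36 of 37 rose with a median of 3.47, and with DESeq2 34 of 35. Aurka, Ccnb1, Kif20a and Plk1 were too low to be tested.

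Mki67, the antigen used to stain dividing cells, was at 159, 263, 312 and 322 CPM in germinal-centre B cells of the axillary atlas, the mediastinal atlas, 4T1 and 67NR mice and at 6.36, 24.6, 0 and 0 CPM in other B cells. The values of 0 came from 42 and 31 other B cells with 392712 and 246224 UMIs in all. Every germinal-centre value lay above every other-B value, and the log2 difference was 4.39 ± 0.41 (SE; adjusted p = 2.47e-05). Top2a, the topoisomerase that untangles chromosomes, was at 191, 279, 401 and 369 CPM against 16.6, 38.9, 20.4 and 24.4 CPM, again without overlap (log2 difference 3.40 ± 0.24, adjusted p = 1.09e-05). The largest log2 differences were those of Cenpf at 4.53 ± 0.57, a kinetochore protein, Mki67, and Bub1 at 4.23 ± 0.44, a kinase of the spindle checkpoint. Cdk1, the kinase that drives mitosis, differed by 3.62 ± 0.56, Tpx2 by 3.59 ± 0.34 and Aurkb by 3.40 ± 0.36. Cdc20, which activates the anaphase-promoting complex, differed least among the mitotic genes that rose, by 1.91 ± 0.41 (adjusted p = 0.00414). Without the mediastinal atlas 14 of the 35 log2 differences moved by over 1.5 times, and those of Cenpf, Cdk1, Mki67, Ccna2 and Top2a were 5.81, 5.32, 5.0, 4.92 and 3.70.

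Replication genes rose less, and with a wide range. Rrm2, the regulated subunit of ribonucleotide reductase, was at 71.3, 86.7, 186 and 179 CPM in germinal-centre B cells and at 2.20, 27.7, 5.09 and 4.06 CPM in other B cells in the same order of samples (log2 difference 3.55 ± 0.52, adjusted p = 0.00034, and 5.03 without the mediastinal atlas). Ccne1, the cyclin of S phase entry, differed by 3.05 ± 0.45 and the helicase subunits Mcm6 and Mcm3 by 2.47 ± 0.20 and 2.45 ± 0.26. Pcna was at 156, 218, 327 and 308 CPM against 88.2, 121, 73.8 and 93.4 CPM. Its log2 difference of 1.23 ± 0.24 (adjusted p = 0.00215) was the smallest of the replication genes, after Mcm4 with 1.29 ± 0.26. Stmn1, which destabilises microtubules, and the chromatin protein Hmgb2 differed by 2.46 ± 0.45 and 2.58 ± 0.36.

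Among other genes of the pathway, 27 of 28 tested mitotic genes rose, Ncapg by 4.11 and Anln by 3.71 on the log2 scale, and 23 of 25 tested replication genes rose and 1 fell, with Mcm10 at 4.07 and Clspn at 3.78. Of 9 cell cycle transcription factors 6 rose and 2 fell, with E2f8 at 4.57. Of 11 inhibitors and quiescence genes 2 rose and 7 fell, with the cyclin-dependent kinase inhibitor Cdkn1b at -2.69 and Rb1 at -2.09. Of 7 genes of dissociation stress none rose and 5 fell, Ier2 by 1.88 and Junb by 1.81 on the log2 scale. The part of cell handling in the cell cycle differences was not tested.

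Cenpa, the histone H3 variant of centromeres, did not follow the others. Its level was 121, 67.4, 105 and 111 CPM in germinal-centre B cells and 122, 95.2, 84.0 and 93.4 CPM in other B cells, so the groups overlapped (log2 difference -0.06 ± 0.19, adjusted p = 0.848). It made up 58.9% of mitotic UMIs in other B cells of the axillary atlas, 57.8% in gamma-delta T cells and 44.5% in NK cells, but 9.28% in germinal-centre B cells. Of axillary other B cells with a Cenpa UMI, 73.4% had no UMI of another mitotic gene, against 8.59% of germinal-centre B cells with one. No annotated gene overlaps Cenpa, at chr5:30666777-30674830 on the plus strand (GENCODE vM21). With Cenpa left out of the call, an alternative added after the data were seen, the cycling share of axillary germinal-centre B cells was 14.4% in place of 15.8%, of gamma-delta T cells 0.6% in place of 1.20%, and of NK cells 0.367% in place of 1.03%.

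**Figure D2:**
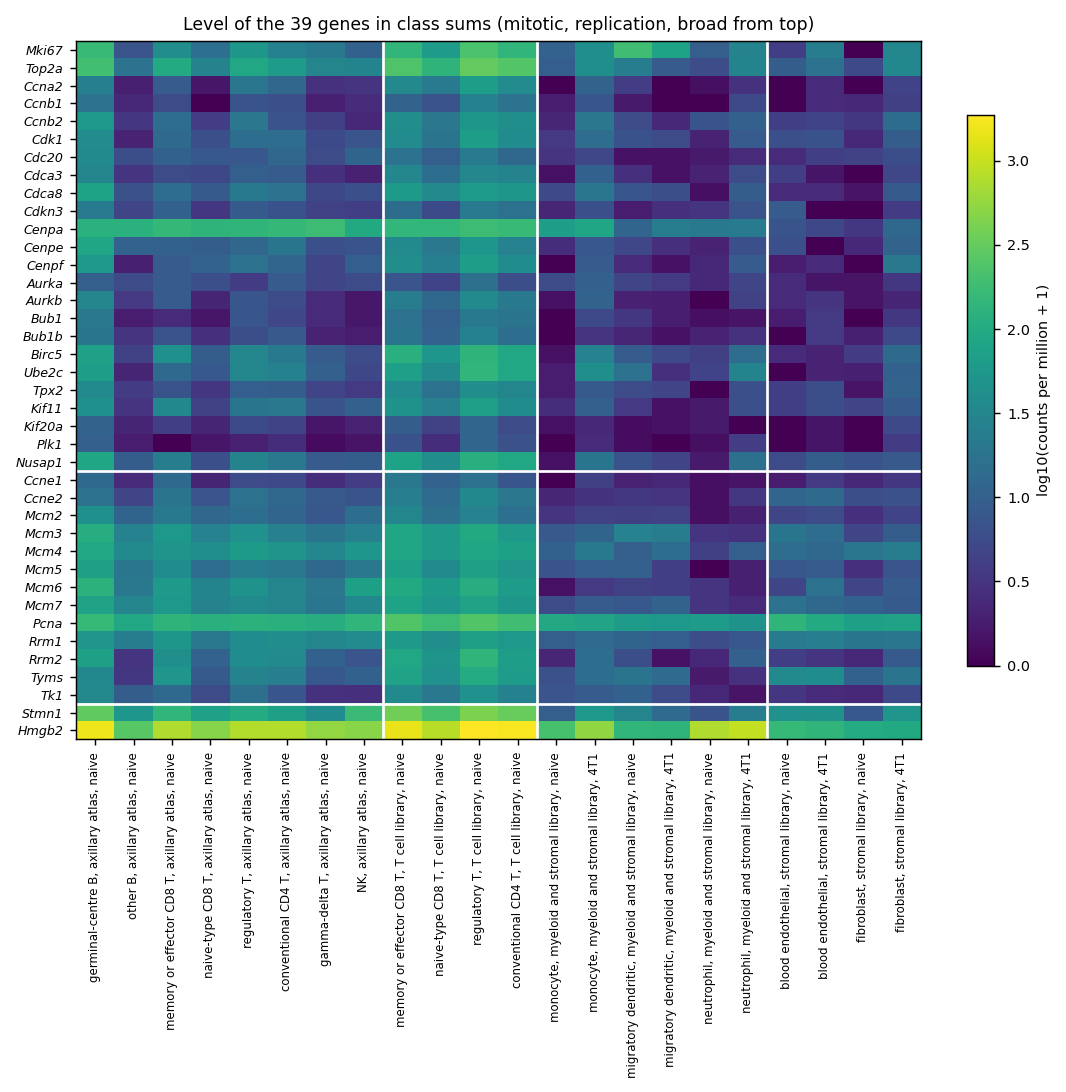
Level of each of the 39 genes (rows; mitotic, replication and broadly expressed genes from top to bottom) in class sums of naive and 4T1 samples (columns), as log10 of CPM plus 1. Most mitotic rows are bright in germinal-centre B cells and in the T cell library and dark in stroma and neutrophils, while Cenpa stays bright across lymphoid classes and Pcna and Hmgb2 across all immune classes drawn.

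T cell classes were compared within each sample, so that the 2 classes share mice and droplets. The samples were the 3 conditions of the T cell library and the 2 atlases, so 3 of the 5 came from 1 library, and p-values measure the spread among these sums. Memory or effector CD8 T cells were cycling in 92 of 502 cells (18.3%, 15.0 to 22.0) in 4T1, 92 of 520 (17.7%, 14.5 to 21.2) in 67NR and 44 of 357 (12.3%, 9.10 to 16.2) in naive mice of the T cell library. Naive-type CD8 T cells were at 42 of 572 (7.34%), 24 of 525 (4.57%) and 28 of 567 (4.94%). Without thinning the shares in the T cell library were 32.2% to 43.1% at median depths of 13082 to 16763.5 UMIs, against 18.5% to 22.4% at 11249 to 12688.5 UMIs. In the axillary atlas the thinned shares were 4 of 60 (6.67%) and 4 of 218 (1.83%). The mediastinal atlas had the reverse order, with 7 of 133 (5.26%) and 36 of 379 (9.50%). The difference was positive in 4 of 5 samples and was 6.42 points ± 6.76 (SD, n = 5), or 9.08 points without the mediastinal atlas.

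Of the 39 genes, all of them tested among 11157, 38 rose in memory or effector over naive-type CD8 T cells and none fell, by edgeR's quasi-likelihood test (Benjamini-Hochberg adjusted). Of all genes, 11.8% rose and 7.19% fell. The median log2 difference was 1.23 over the list and 0.01 over all genes. Without the sample as a block none was called, though 34 had an unadjusted p under 0.05. DESeq2 called 23, and leaving out the 4T1 sum of the T cell library left 18, against 38, with a median of 1.38, without the mediastinal atlas. On cells thinned to 1000 UMIs 19 genes could be tested and 13 rose. Of 10 dissociation stress genes 1 rose and 1 fell.

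Plk1, the polo kinase of mitotic entry, had the largest log2 difference, 1.87 ± 0.26 (adjusted p = 0.000689), at levels of 10.6, 14.1, 5.77, 0 and 1.54 CPM in memory or effector and 3.04, 2.83, 1.68, 0.580 and 3.51 CPM in naive-type cells of 4T1, 67NR and naive mice and the axillary and mediastinal atlases. It was higher in the 3 sums of the T cell library and lower in both atlases. Cdk1 was at 62.1, 65.4, 36.8, 12.3 and 27.7 CPM against 18.6, 13.8, 17.4, 5.22 and 23.2 CPM, in the same order. It was higher in the memory or effector class in 5 of 5 samples (log2 difference 1.61 ± 0.18, adjusted p = 0.000222), while the groups as a whole overlapped. Mki67 was at 213, 234, 140, 40.1 and 12.3 CPM against 80.4, 44.5, 62.3, 14.5 and 78.0 CPM in the same order. The mediastinal pair ran the other way, and the log2 difference was 1.36 ± 0.32 (adjusted p = 0.011), or 1.66 without it. Plk1 and Cdk1 stood at 1.99 and 1.71 without it. Bub1 differed by 1.58 ± 0.27 and Ccne1 by 1.55 ± 0.22, Rrm2 by 1.44 ± 0.29 and Stmn1 by 1.01 ± 0.22. Pcna differed by 0.60 ± 0.14 and Mcm4 by 0.61 ± 0.12. Cenpa again stood apart, with 151, 145, 144, 153 and 86.2 CPM against 148, 124, 145, 136 and 91.3 CPM (log2 difference 0.10 ± 0.07, adjusted p = 0.373). Of the other genes of the pathway, 35 of 36 mitotic genes rose and 1 fell, and all 27 replication genes rose, with Hmmr at 1.59 and Cdc6 at 1.51. Of 11 transcription factors 9 rose, E2f8 by 1.57 and Mybl2 by 1.52 on the log2 scale.

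Summed per sample, the mitotic level of memory or effector over naive-type CD8 T cells differed by 1.12, 1.80 and 0.82 in 4T1, 67NR and naive mice and by 1.01 in the axillary atlas on the log2 scale. It differed by -1.09 in the mediastinal atlas, where 3 of 39 genes were higher in the memory or effector class, against 37 to 39 in the other 4 samples. In that library the top 5% of memory or effector cells held 22.8% of the class's mitotic UMIs, against 41.1% to 59.2% in the other samples.

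Regulatory T cells showed the same direction over conventional CD4 T cells at a smaller size. Their cycling shares were 51 of 353 (14.4%, 11.0 to 18.6), 57 of 392 (14.5%, 11.2 to 18.4) and 35 of 282 (12.4%, 8.80 to 16.8) in 4T1, 67NR and naive mice of the T cell library, against 18 of 263 (6.84%), 18 of 309 (5.83%) and 20 of 313 (6.39%) of conventional CD4 T cells. The axillary atlas had 15 of 345 (4.35%) and 8 of 400 (2.00%), and the mediastinal atlas 19 of 291 (6.53%) and 20 of 164 (12.2%). The difference was 3.80 points ± 5.82 (SD, n = 5), or 6.17 points without the mediastinal atlas. All 39 genes were tested among 10265, and by edgeR's quasi-likelihood test (Benjamini-Hochberg adjusted) 24 rose and none fell. Of all genes, 12.6% rose and 10.9% fell. The 24 were 16 mitotic genes, 7 replication genes and Stmn1, and the median log2 difference was 0.60 over the 39 genes and -0.00 over all.

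The count depended on the samples and the model. Without the sample as a block none was called and 2 had an unadjusted p under 0.05. DESeq2 called 12, and 8 were left without the 4T1 sum of the T cell library, 8 without its 67NR sum and 15 without its naive sum, against 33, with a median of 0.67, without the mediastinal atlas. On thinned cells 14 could be tested and 1 rose. Of 10 dissociation stress genes 1 rose and 3 fell, and the part of handling was not tested.

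Plk1 was again first by size, at 21.7, 12.4, 10.7, 1.03 and 3.85 CPM in regulatory and 8.04, 4.30, 5.45, 1.66 and 1.72 CPM in conventional CD4 T cells of 4T1, 67NR and naive mice and the axillary and mediastinal atlases (log2 difference 1.13 ± 0.25, adjusted p = 0.00888). The axillary pair was lower in regulatory T cells, the other 4 were higher. Cenpf differed by 0.99 ± 0.16, the B cyclins Ccnb2 and Ccnb1 by 0.98 ± 0.18 and 0.96 ± 0.22, and Ccna2 by 0.90 ± 0.14 (adjusted p = 0.00144). Mki67 was at 283, 199, 220, 53.0 and 28.8 CPM against 112, 132, 142, 26.8 and 49.8 CPM, higher in 4 of 5 pairs (log2 difference 0.69 ± 0.19, adjusted p = 0.0226). Top2a, with a log2 difference of 0.43 ± 0.16 and an adjusted p of 0.0842, Pcna with 0.10 ± 0.09, Hmgb2 with 0.09 ± 0.10 and Cenpa with 0.20 ± 0.12 did not pass the test. Without the mediastinal atlas Top2a did, with 0.56 and an adjusted p of 0.00233, and Mki67 was at 0.80. Of the replication genes, Mcm3 differed by 0.59 ± 0.12 and Mcm6 by 0.55 ± 0.09. Other mitotic genes rose in 20 of 35 tested, other replication genes in 15 of 27 and transcription factors in 5 of 11, with Ncapg at 1.02, Mcm10 at 0.90 and Myc at 1.26. Of the G1 genes tested, 2 of 5 rose and 1 fell, with Cdk6 at 0.83 and Ccnd3 at -0.65.

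**Figure D3:**
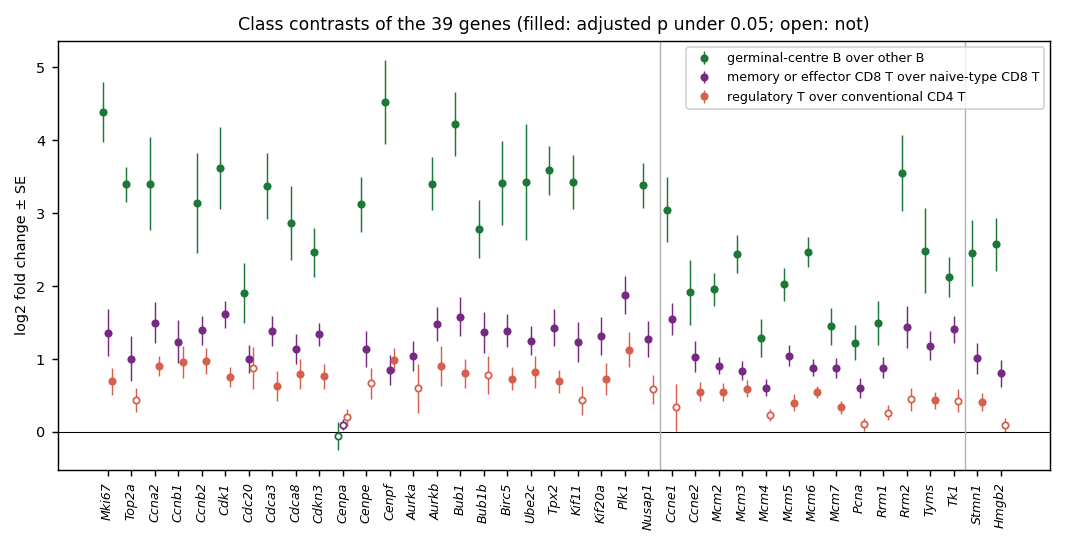
Log2 fold change ± SE of the 39 genes (x axis, mitotic, replication and broadly expressed from left to right) for germinal-centre B over other B, memory or effector over naive-type CD8 T and regulatory over conventional CD4 T cells, by edgeR; filled points have an adjusted p under 0.05. The germinal-centre contrast is the largest for every gene it tests but Cenpa, which lies near 0 in all 3 contrasts (-0.06, 0.10 and 0.20).

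Follicular helper T cells, which help B cells in germinal centres, gave no call over conventional CD4 T cells in 3 sums of 34 to 69 cells. None of the 39 genes passed edgeR's quasi-likelihood test (Benjamini-Hochberg adjusted), where 0.539% of 9278 genes rose and 0.787% fell. DESeq2 also called none, and 4 had an unadjusted p under 0.05. The cycling shares were 4 of 69 (5.80%), 3 of 58 (5.17%) and 5 of 34 (14.7%, 4.95 to 31.1) in 4T1, 67NR and naive mice. The mitotic level of the naive sum, 2572 CPM in 34 cells, was the highest of any named class and condition. Mki67 was at 115, 58.6 and 264 CPM in follicular helper and 112, 132 and 142 CPM in conventional CD4 T cells. Without the naive sum 6 genes were lower in follicular helper T cells, without the 67NR sum 3 were higher and without the 4T1 sum 1 was.

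Between conditions of the T cell library there was 1 sum each, so ratios are given without a test, and a gene was counted past a fold where its log2 ratio was 1 or more. In memory or effector CD8 T cells all 24 mitotic and all 13 replication genes were above 0 in 4T1 over naive and in 67NR over naive mice, which share the naive sum. The mitotic level was 1871 CPM (1845 to 1898) in 4T1, 1967 (1941 to 1993) in 67NR and 1265 (1237 to 1292) in naive mice, a log2 ratio of 0.57 and 0.64. The replication level was 1302, 1375 and 991 CPM. None of the 24 mitotic genes was past the fold in 4T1 over naive, where 0.58% of all genes were (0.274% lower), and 3 were in 67NR over naive, where 0.637% were (0.291% lower). Rrm2 had a log2 ratio of 0.93 (0.79 to 1.07) and 0.94 (0.81 to 1.08), Ccna2 of 0.97 (0.74 to 1.19) and 0.93 (0.71 to 1.15), and Pcna of 0.19 (0.10 to 0.28) and 0.20 (0.11 to 0.28). Cenpa had 0.07 (-0.05 to 0.19) and 0.01 (-0.11 to 0.13). In conventional CD4 T cells the mitotic level was lower in tumour-bearing mice, 1009 and 1027 CPM in 4T1 and 67NR against 1263 in naive mice, while the cycling shares were 6.84%, 5.83% and 6.39%. Their replication level was 901, 659 and 728 CPM, and all 13 replication genes were above 0 in 4T1 over naive (log2 ratio of the sum 0.31, 0.23 to 0.38). The mitotic level was 2292, 1845 and 1784 CPM in regulatory T cells and 861, 563 and 716 CPM in naive-type CD8 T cells of 4T1, 67NR and naive mice. T cells of no named subset were at 1207, 1035 and 757 CPM in the same order. Their log2 ratio over naive was 0.67 (0.62 to 0.72) in 4T1 and 0.45 (0.40 to 0.51) in 67NR mice. All 24 mitotic genes were above 0 in the first and all 22 measured in the second. A higher mitotic level was thus not particular to memory or effector CD8 T cells.

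In the myeloid and stromal library, monocytes of tumour-bearing mice held cycling cells and those of naive mice did not at this depth. The share was 18 of 419 (4.30%, 2.57 to 6.70) in 4T1, 7 of 181 (3.87%, 1.57 to 7.81) in 67NR and 0 of 142 in naive mice, which allows a share of up to 2.11% (exact upper bound 2.56%). Neutrophils of the same mice were at 0 of 247 (up to 1.21%), 6 of 793 (0.757%) and 1 of 650 (0.154%). The gate does not part mature from immature neutrophils. Those not called held up to 353, 205 and 37 mitotic UMIs in 4T1, 67NR and naive mice, so the call can miss dividing cells. Without thinning (at least 3 genes) the shares of monocytes were 17.7%, 14.4% and 8.45% at median depths of 22247, 18013 and 14736 UMIs, and of neutrophils 1.20%, 0.626% and 0.305% at 6348, 5448 and 3568 UMIs. In 4T1 monocytes 358 cells had no mitotic gene after thinning, 43 had 1, 6 had 2 and 12 had 3 or more. Without Cenpa the monocyte shares were 3.10%, 3.31% and 0. The 18 cycling 4T1 monocytes held a median of 227 UMIs of 8 monocyte and macrophage markers at 38601 UMIs in all, against 118 at 22059 in the others.

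The mitotic level in monocytes was 404 CPM (391 to 417) in 4T1, 394 (373 to 416) in 67NR and 108 (95.6 to 123) in naive mice. The log2 ratio over naive was 1.90 (1.72 to 2.08) in 4T1 and 1.86 (1.67 to 2.06) in 67NR, with the same naive sum in both, and that of 4T1 over 67NR was 0.04 (-0.05 to 0.13). Of the 19 mitotic genes that reached 50 UMIs in one of the groups, 17 were past the fold in 4T1 over naive and none in the other direction, against 3.75% of all genes higher and 2.53% lower. In 67NR over naive 5 of 6 were, against 0.784% of all genes higher and 2.05% lower. The genes past the fold met the UMI minimum only through the tumour-bearing sum, where they were high. The 4T1 sum held 9549230 UMIs in all and the naive sum 2378330, so a gene could meet the minimum at a lower CPM in 4T1. These counts therefore lend no support to a direction. The summed mitotic level asks for no minimum per gene, and its log2 ratios over naive lay above 0 with their intervals. The top 5% of cells held 72.7% of mitotic UMIs in 4T1 and 68.8% in 67NR monocytes, but 22.9% in naive monocytes.

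Mki67 was at 42.0 CPM in 4T1, 36.1 in 67NR and 9.67 in naive monocytes, and Top2a at 42.3, 39.4 and 8.41. Their log2 ratios of 4T1 over naive were 2.12 (1.51 to 2.79) and 2.33 (1.68 to 3.06). Ube2c, the ubiquitin carrier of the anaphase-promoting complex, had 403 UMIs in 4T1, 132 in 67NR and 2 in naive monocytes, a log2 ratio of 5.65 (3.79 to 8.70) and 5.55 (3.67 to 8.61). Birc5, a member of the chromosomal passenger complex, had 260, 81 and 1 UMIs, with ratios of 6.02 (3.53 to 11.3) and 5.85 (3.33 to 11.2). Ccna2 had 95 UMIs in 4T1 and none in naive monocytes, a log2 ratio of at least 2.98 against a floor of 3 UMIs in the naive sum. Cenpf had 77 and none, at least 2.68 by the same floor. Ccnb2 was at 19.0, 20.3 and 1.26 CPM. Cenpa differed far less, at 86.1, 110 and 66.4 CPM, with log2 ratios of 0.37 (0.13 to 0.63) in 4T1 and 0.73 (0.46 to 1.01) in 67NR.

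Replication genes moved less in monocytes. Their summed level was 189, 138 and 146 CPM in 4T1, 67NR and naive mice, with log2 ratios over naive of 0.37 (0.21 to 0.54) and -0.08 (-0.29 to 0.12). Rrm2 had 137 UMIs in 4T1 and 3 in naive monocytes (log2 ratio 3.51, 1.93 to 5.80), Tyms, which makes thymidylate, a ratio of 1.40 (0.58 to 2.35) and Mcm4 one of 1.11 (0.47 to 1.82). Pcna was not higher, at 81.6, 72.9 and 93.3 CPM. Stmn1 was at 55.3, 29.0 and 8.83 CPM and Hmgb2 at 537, 455 and 211 CPM. Summed neutrophil markers were 1125, 700.4 and 1304 CPM in the same monocyte sums, and 8 epithelial or tumour cell markers were at 13.7, 9.86 and 4.63 CPM. The part of either in the differences was not tested. Macrophages had no cycling cell among 86 in 4T1 mice (up to 3.49%) and 35 in naive mice (up to 8.57%) after thinning. Without thinning (at least 3 genes) 13 of 86 (15.1%, 8.30 to 24.5) and 2 of 35 (5.71%) were called, at median depths of 21962.5 and 18025 UMIs. The 44 monocytes of the axillary atlas had a mitotic level of 109 CPM.

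Across 4 sums, 21 genes of the list could be tested between monocytes and neutrophils among 8888. By edgeR's quasi-likelihood test (Benjamini-Hochberg adjusted) 3 rose and 1 fell, where 35.5% of all genes rose and 33% fell. The list's share was below both. Cenpa differed by 1.28 ± 0.25 (adjusted p = 0.000374), Mcm5 by 1.37 ± 0.56 and Mcm3 by 1.23 ± 0.39. Hmgb2 differed by -2.45 ± 0.25 (adjusted p = 1.02e-06), with 767 to 1113 CPM in neutrophils. With RLE scaling 6 rose and 1 fell, the median of all genes moving from 0.10 to 0.46, and without the 4T1 sums 1 rose and 1 fell. Of 10 dissociation stress genes 2 rose and 6 fell, and the part of handling was not tested. The mitotic level of neutrophils was 216, 132 and 59.9 CPM in 4T1, 67NR and naive mice, log2 ratios over naive of 1.85 and 1.14. With 1 marker more per gate the 67NR ratio turned to -0.81, and on thinned cells the 4T1 ratio was -0.14. A single 4T1 cell with 80690 UMIs held 353 of the 448 mitotic UMIs (78.8%), with 23 of 24 mitotic genes, and drew a single mitotic gene when thinned.

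**Figure D4:**
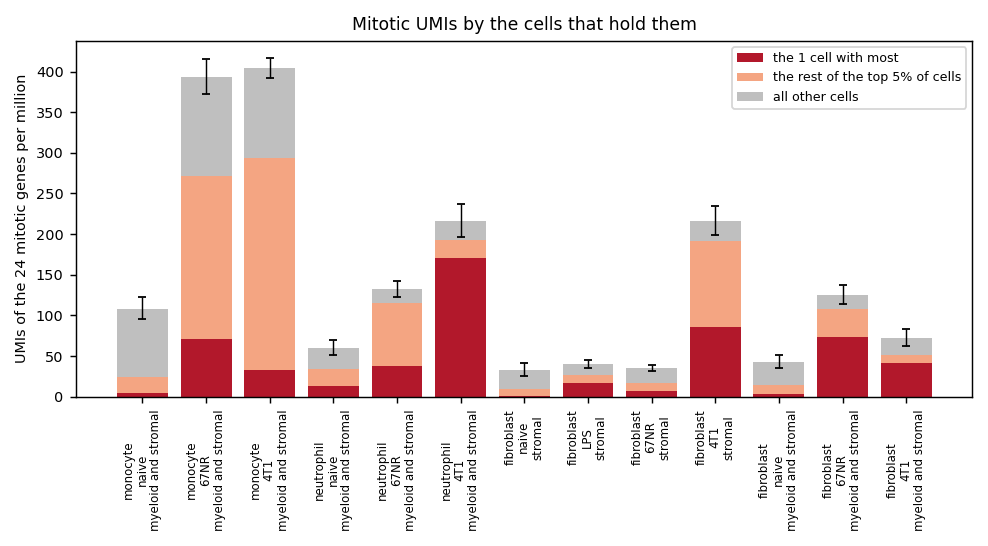
UMIs of the 24 mitotic genes per 1000000 UMIs (CPM) in monocytes, neutrophils and fibroblasts by condition and library (bars from 0, Poisson bars), split into the cell with most, the rest of the top 5% of cells and all others. In 4T1 neutrophils 1 cell holds 78.8% and in 4T1 stromal fibroblasts 39.9%, while in 4T1 monocytes the top 5% of cells hold 72.7% and the first cell 8.03%.

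Among sums of at least 20 cells, cycling dendritic cells were few in number. The shares of the conventional types lay above the 4.30% of 4T1 monocytes, with overlapping intervals. Of cDC1 in the axillary atlas 3 of 48 (6.25%, 1.31 to 17.2) and of cDC2 in naive mice of the myeloid and stromal library 3 of 46 (6.52%, 1.37 to 17.9) were cycling, with mitotic levels of 363 and 715 CPM. That library held 10 cycling cDC2 in all. The rest were in 4T1 and 67NR sums of under 20 cells, for which no share is given. The cDC2 share of tumour-bearing mice is thus not shown here. Migratory dendritic cells were cycling in 1 of 95 (1.05%), 2 of 73 (2.74%) and 5 of 318 (1.57%, 0.512 to 3.63) in 4T1, 67NR and naive mice, and in 0 of 78 in the axillary atlas (up to 3.85%, exact upper bound 4.62%). Their mitotic levels were 146, 183, 295 and 81.8 CPM. The intervals of the conventional and migratory types overlapped, and no test between them could be run. Without thinning (at least 3 genes) the shares were 14.3% in cDC1, 28.3% in cDC2, and 12.6%, 17.8%, 12.3% and 0 in migratory cells. Mki67 of migratory dendritic cells was at 79.4, 107 and 186 CPM, and 30.5 CPM in the axillary atlas. In the naive sum 72.0% of migratory dendritic cells had an Mki67 UMI and 48.5% of these had no UMI of another mitotic gene. In axillary germinal-centre B cells 5.18% of Mki67-positive cells had none. Top2a in the same migratory sums was at 7.77, 4.13 and 23.2 CPM. Mki67 had a log2 ratio over naive of -1.23 (-1.46 to -1.01) in 4T1 and -0.80 (-1.03 to -0.58) in 67NR mice, Top2a of -1.58 (-2.37 to -0.87) and -2.49 (-3.83 to -1.41), and Cenpa of 1.16 (0.63 to 1.68) and 1.79 (1.28 to 2.29). Of the 5 mitotic genes measured, 3 were past the fold downward and 1 upward in each comparison, against 3.45% and 5.57% of all genes downward and 2.48% and 3.16% upward. Top2a and Ube2c reached the minimum of 50 UMIs only through the naive sum, where they were high, as did Birc5, so this count lends no support to a direction. Top2a had 18, 7 and 164 UMIs, Ube2c 4, 2 and 109 and Birc5 10, 3 and 56 in 4T1, 67NR and naive mice.

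**Figure D5:**
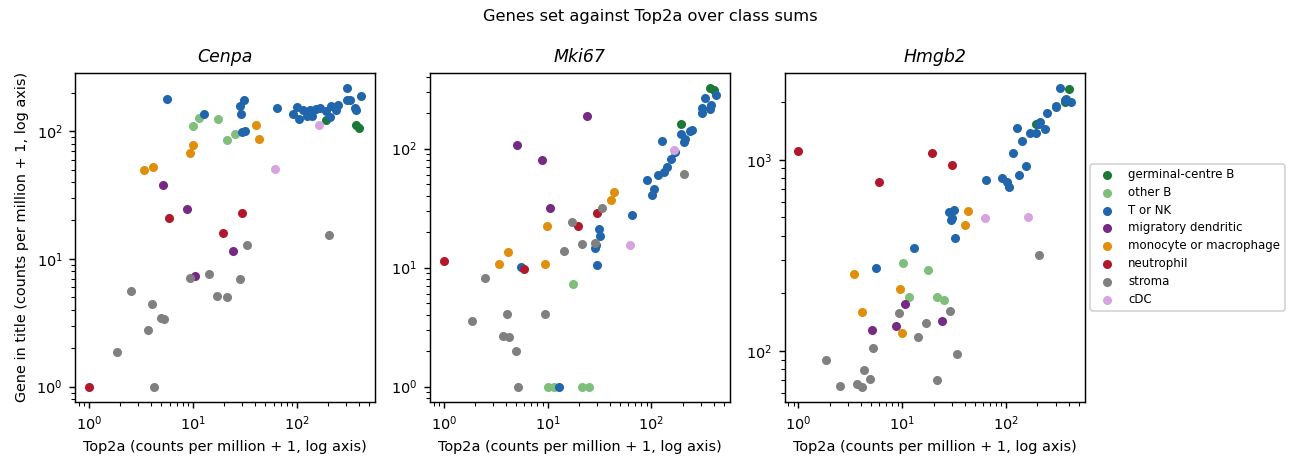
Levels of Cenpa, Mki67 and Hmgb2 (y axes) against Top2a (x axes) over class sums, all as CPM plus 1 on log axes, coloured by cell group, without the mediastinal atlas. Cenpa lies between 84.0 and 216 CPM in B and T cells over the whole range of Top2a, Mki67 of migratory dendritic cells lies far above classes of like Top2a, and neutrophils have Hmgb2 of 767 CPM or more at low Top2a.

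Few stromal cells were called cycling. The call can miss dividing cells, since fibroblasts not called held up to 92 mitotic UMIs in 4T1 and 56 in 67NR mice of the stromal library. Fibroblasts were cycling in 3 of 138 (2.17%, 0.451 to 6.22) in 4T1, 1 of 504 (0.198%) in 67NR, 1 of 337 (0.297%) in LPS and 0 of 159 in naive mice (up to 1.89%) of the stromal library. The other library with stroma, the myeloid and stromal one, had 1 of 146 (0.685%), 3 of 195 (1.54%) and 0 of 156 (up to 1.92%) in 4T1, 67NR and naive mice. Over both libraries the shares were 4 of 284 (1.41%, 0.385 to 3.57), 4 of 699 (0.572%, 0.156 to 1.46), 1 of 337 and 0 of 315 (up to 0.952%), and the intervals overlapped. Without thinning (at least 3 genes) the shares in the stromal library were 6.52%, 0.794%, 1.19% and 0 at median depths of 17310, 16887, 17871 and 12958 UMIs. Ptprc, the pan-leukocyte marker CD45, had at most 1 UMI in any of the 9 cycling fibroblasts and was at 0 in 8 of them.

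The mitotic level of stromal-library fibroblasts was 216 CPM (199 to 235) in 4T1, 35.2 in 67NR, 39.9 in LPS and 33.0 in naive mice, and 7 of 138 cells held 88.3% of it in 4T1. The myeloid and stromal library did not repeat this order, with 72.6, 125 and 42.9 CPM in 4T1, 67NR and naive mice, and 1 cell held 56.5% and 58.3% of the first 2. Mki67 was at 30.8, 1.64, 0.984 and 0 CPM in 4T1, 67NR, LPS and naive fibroblasts of the stromal library, and at 7.22, 14.7 and 3.06 CPM in 4T1, 67NR and naive fibroblasts of the other. Replication genes differed less, at 187, 134, 129 and 149 CPM in the stromal library. Their level was highest in 4T1, with a log2 ratio of 0.33 (0.12 to 0.54) over naive and 0.48 (0.32 to 0.63) over 67NR mice. In the myeloid and stromal library it was 112, 123 and 147 CPM in 4T1, 67NR and naive mice, lower in 4T1 than in naive mice (log2 ratio -0.39, -0.62 to -0.17).

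Tested over both libraries with the library as a block and 2 residual degrees of freedom, none of the 20 genes that passed the filter was called in 4T1 over naive, 67NR over naive or 4T1 over 67NR fibroblasts by edgeR's quasi-likelihood test (Benjamini-Hochberg adjusted). Of 11782 genes 0.874% rose and 0.441% fell in 4T1 over naive, 2.27% and 1.03% in 67NR over naive, and 0% and 0.0255% in 4T1 over 67NR. At an unadjusted p under 0.05 the counts were 7, 0 and 5, and DESeq2 called 1, 0 and 0. In 4T1 over naive the 11 mitotic genes had a median log2 difference of 2.16 and the 7 replication genes one of -0.05. Mki67 stood at 3.76 ± 1.34 (adjusted p = 0.227), Cenpf at 4.83 ± 1.90 (adjusted p = 0.264), Ccnb2 at 1.93 ± 0.51 (adjusted p = 0.119), Stmn1 at 1.84 ± 0.51 (adjusted p = 0.134) and Pcna at -0.08 ± 0.16 (adjusted p = 0.852). Without the 4T1 sum of the myeloid and stromal library 6 genes rose in 4T1 over naive, 2 in 67NR over naive and 3 in 4T1 over 67NR, each time with 1 sum left for 4T1, which is then assumed to vary like the rest. On simulated counts this fit recovered 51.5% of 2-fold and 96.9% of 4-fold changes over 11646 genes, against 99% and 100% over 10476 genes for the regulatory T cell contrast. The simulation gave all genes 1 common spread and no library effect. It therefore cannot tell how often a change of mitotic genes held by few cells would be found.

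Blood endothelial cells were cycling in 1 cell of each condition of the stromal library, of 162, 182, 126 and 148 in 4T1, 67NR, LPS and naive mice (0.617%, 0.549%, 0.794% and 0.676%). The cell was of the high endothelial venule class in 4T1 and naive mice and of the other blood endothelial class in 67NR and LPS mice. In 4T1 mice 1 of 25 high endothelial venule cells was cycling (4%, 0.101 to 20.4) and 0 of 137 others (up to 2.19%), at mitotic levels of 196 and 36.5 CPM (log2 ratio 2.43, 1.93 to 2.94). In 67NR mice the levels were 88.3 and 101 CPM (log2 ratio -0.20, -0.67 to 0.25). The mitotic level of all blood endothelial cells was 92.2, 96.9, 146 and 61.7 CPM in 4T1, 67NR, LPS and naive mice. It was below that of fibroblasts in 4T1 (log2 ratio -1.23, -1.48 to -0.98) and above it in the other conditions. In LPS over naive mice the log2 ratio was 1.25 (0.87 to 1.64), and 1 cell held 141 of the 195 UMIs. The replication level was 245, 192, 312 and 273 CPM, above that of fibroblasts in each condition. A replication signal alone, at least 2 replication genes and under 2 mitotic genes, was seen in 0, 2, 2 and 6 cells. Of the 18 genes tested over fibroblasts among 11061, edgeR's quasi-likelihood test (Benjamini-Hochberg adjusted) called 8 higher and none lower, where 25.9% of all genes rose and 31.1% fell. These were 6 replication genes, Stmn1 and Hmgb2, and none of the 7 mitotic genes. Tyms, with a log2 difference of 1.35 ± 0.18 (adjusted p = 7.85e-05), was at 38.3, 28.7, 44.3 and 35.0 CPM in blood endothelial cells and at 17.0, 13, 11.3 and 9.43 CPM in fibroblasts of 4T1, 67NR, LPS and naive mice, without overlap. Pcna differed by 0.56 ± 0.13 and Mcm3 by 1.28 ± 0.32. Without the LPS sums 5 rose, and on thinned cells 1 of 2 tested. Dissociation stress genes fell in 7 of 10 and rose in 2 in the same contrast, and the part of handling was not tested.

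Lymphatic endothelial cells were few. In LPS mice 2 of 22 were cycling (9.09%, 1.12 to 29.2), and these 2 cells, with 102 and 127 mitotic UMIs and no Ptprc UMI, held 87.4% of the mitotic UMIs of the class (750 CPM). None of 32 in 4T1 (up to 9.38%) and none of 63 in 67NR mice (up to 4.76%) was cycling, at 48.8 and 28.4 CPM. Over fibroblasts 4 of 12 genes tested among 10796 rose and none fell, where 18.5% of all genes rose and 22.2% fell. They were Bub1b at 3.53 ± 0.81 (adjusted p = 0.00266), Mcm3 at 1.84 ± 0.45, Stmn1 at 2.37 ± 0.63 and Tyms at 1.10 ± 0.36, by the same edgeR test. Without the 4T1 sums 7 rose. The summed mitotic level did not keep 1 direction over fibroblasts. Its log2 ratio was -2.15 (-2.73 to -1.62) in 4T1, -0.31 (-0.87 to 0.21) in 67NR and 4.23 (3.98 to 4.49) in LPS mice. Dissociation stress genes fell in 8 of 10 and rose in none, and the part of handling was not tested.

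Strand use in counting is not given in the sources used here, so genes with an annotated neighbour on the other strand cannot be told apart from it where the reads overlap. Among the 39 genes these include Ccna2 with Exosc9, Cdc20 with Elovl1, Ube2c with Tnnc2, Nusap1 with Oip5, Ccne2 with Ints8, Mcm7 with Cops6 and Tk1 with Afmid.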

How the data were processed

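Droplet libraries of mouse lymph node cells were made with the 10x 3′ v3.1 kit, 5 gene libraries and 5 antibody or hashtag libraries, per the labels' protocols. The deposited values are raw UMI counts per gene and cell, for which the submitters' processing notes name Cell Ranger 7.0 and the mm10 build. Whether counting used strand is not given in the sources used here. The members and all gene lists were chosen with earlier results of these data known.

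Cells with at least 500 UMIs, 250 genes and at most 10% mitochondrial UMIs were kept. A hashtag was called at 10 or more UMIs and 3 times the next one, which removed 6.98% to 17.0% of cells as doublets. Scrublet (scanpy 1.11.5) marked 7.62% of axillary atlas cells, which were left out, and 0 of the mediastinal atlas, where it did not work. A lineage was given where at least 3 of its markers exceeded the 99th percentile of a Poisson count for 10% free RNA, and no other lineage had over 50% as many. This scoring was set on the data, and no proliferation gene entered it. The gates read unthinned counts, and cycling cells were deeper than others in most libraries. A class that asks for more markers may take in deeper cells, and the part of depth in the class differences was not tested. Sums of at least 20 cells per class and sample were fitted in edgeR 4.0.16 (filterByExpr, TMM, quasi-likelihood test, Benjamini-Hochberg adjustment over all genes, threshold 0.05). The block was the sample for classes, which share droplets and mice, and the library for fibroblast conditions. Ratios between conditions needed 50 cells a group and 50 UMIs of the gene in the higher one. Promoter letters came from RefSeq and gene positions from GENCODE vM21. R 4.3.3, DESeq2 1.42.0, limma 3.58.1, Python 3.11.15, pandas 2.3.3, NumPy 2.4.6, SciPy 1.17.1 and matplotlib 3.10.9 were used, and the fits were tested on simulated data.

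The named genes are the 39 members. Of each other pathway list at most the 2 genes of largest change are named, and promoters are printed for the 3 mitotic and 3 replication members of highest mean level that hold a match. Alternatives were DESeq2, RLE scaling, no filter, no block, each sum left out, other gates, hashtag, mitochondrial and depth settings, and, added after seeing the data, scrublet-marked cells kept, Cenpa left out, and share differences with each sample left out.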

Additional observations from a re-analysis of the deposited data

Results flagged for a closer look

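In groups of 4 sums, a sample is noted where it lies far from the others, which chance does for about 1 in 20 groups. The summed replication level of monocytes over neutrophils had a log2 ratio of 3.71 in the axillary atlas, apart from the other 3 sums (gap over range 0.867). That atlas held 20 neutrophils with 1 replication UMI. The cycling share of blood endothelial cells minus that of fibroblasts was -1.56 percentage points in 4T1 mice of the stromal library (gap over range 0.855), where 3 of 138 fibroblasts were cycling.

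The summed replication level of follicular helper over conventional CD4 T cells had a log2 ratio of 0.92 in naive mice and was below 0 in both tumour-bearing groups, at -0.69 in 4T1 and -0.20 in 67NR. This difference was not tested.

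Cells that met no gate entered no comparison. Their cycling share was 6.81% (6.37 to 7.27, 835 of 12259) in the mediastinal atlas and 0.931% in the axillary atlas.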

How the results depend on the processing

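Over all alternatives, 194 of 235 values of the main results stayed close to the main value. Close meant a count of called genes within 1.5 times, a share or ratio inside its main interval, or a share difference within its SD. Of the other values 10 moved out of these limits, 16 had more calls, 14 had fewer and 1 reversed. Without a filter on low counts, the genes called were 10 in fibroblasts of 4T1 over naive, 4 in 67NR over naive, 3 in 4T1 over 67NR, 2 in follicular helper T cells, 9 in monocytes over neutrophils and 7 in lymphatic endothelial cells. DESeq2 called 1 in 4T1 over naive fibroblasts, 12 in regulatory T and 23 in memory or effector CD8 T cells. Without the replicate block 0 were called in regulatory T and 0 in CD8 T cells, and the block changed no other count by more than 1.5 times. RLE scaling called 7 in monocytes over neutrophils. On cells thinned to 1000 UMIs the counts were 1 in regulatory T, 13 in CD8 T, 2 of 2 tested in germinal-centre B and 1 in blood endothelial cells, and 1 lower in monocytes, against mostly higher before. No member could then be tested in lymphatic endothelial cells. Mcm5 and Mcm7 turned to -0.44 and -0.32 in thinned regulatory T cells. The cause was not tested.

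Leaving out 1 sum gave 0 to 6, 0 to 2 and 0 to 3 calls in the fibroblast contrasts in the order above, 8 to 33 in regulatory T, 1 to 6 in follicular helper T, 18 to 38 in CD8 T, 28 to 36 in germinal-centre B, 2 to 4 in monocytes, 3 to 7 in lymphatic and 5 to 11 in blood endothelial cells. Share differences ran from 2.58 to 6.17 points in regulatory T, 4.74 to 9.08 in CD8 T and 15.0 to 21.8 in germinal-centre B cells. Monocyte shares in 4T1, 67NR and naive mice were 17.7%, 14.4% and 8.45% unthinned with at least 3 genes and 14.6%, 14.9% and 6.34% with at least 1. Unthinned share differences were 13.7 points in CD8 T and 47.0 in germinal-centre B cells. The monocyte mitotic log2 ratio over naive was 2.19 in 4T1 and 2.31 in 67NR on thinned cells. In neutrophils it turned to -0.14 in thinned 4T1 cells and to -0.81 in 67NR with 1 marker more per gate.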
